A study of Mus musculus with 12 samples.

Results

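Stimulated bone marrow-derived mast cells (BMMCs) labelled *Elk4* heterozygous (HZ) were compared with stimulated BMMCs labelled wild type (WT). The comparison used the 4 libraries that the deposited count table names as stimulated HZ or WT, 2 of each, out of 12 libraries in the series. The other 8 libraries were unstimulated WT and HZ cells and both states of *Elk4* knockout (KO) cells, again 2 of each. All mice carried the C57BL/6N background, were 6 to 12 weeks old and of both sexes, and the WT animals were littermates of animals from a conventional knockout line, in which *Elk4* is lost in every cell type. Marrow was grown for 4 to 8 weeks with the growth factors SCF and IL-3, each at 10 ng/ml, until more than 80% of the cells carried both CD117 and FcϵRI. The study's results give 8 weeks for the WT, HZ and KO cultures. In its RT-qPCR methods, cells were loaded overnight with anti-DNP IgE at 0.5 µg/ml. DNP-HSA antigen was then added at 100 ng/ml for 1 h. The RNA-seq methods name only IgE-DNP/HSA, so the dose and time for these libraries are taken from the RT-qPCR methods. Unstimulated cells received no antigen, and the labels and the study's methods do not say whether they were loaded with IgE. Below, before or without antigen refers to these unstimulated cells, and any effect of IgE loading cannot be told apart from that of antigen. The labels number the replicates of each group 1 and 2 without saying whether a number is an animal, a culture or a preparation, so the p-values below measure the spread between these libraries, which may be technical.

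Mast cells carry IgE on the high-affinity receptor FcϵRI. When antigen links these receptors, the cells release stored histamine, proteases and heparin within minutes and then transcribe immediate-early genes, cytokines and chemokines. ELK4 is a ternary complex factor (TCF), a family of ETS-domain proteins that bind the core CCGGAA and act together with serum response factor (SRF), which binds the CArG box. TCFs are phosphorylated by MAP kinases and are known for driving immediate-early genes such as *Fos* and *Egr1*. The comparison asks how RNA levels differ after antigen between cells labelled as having a single intact *Elk4* copy and cells labelled as having both.

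*Elk4* itself had 2322 and 1995 counts (WT) against 2139 and 1883 (HZ), or 78.2 and 67.0 CPM (WT) against 65.2 and 63.7 (HZ), where CPM are counts scaled to the same library size with edgeR's TMM factors. The CPM of the groups did not overlap, but the log2 difference of HZ minus WT was only -0.17 ± 0.06 (SE, edgeR adjusted p = 0.0243), which missed the fold threshold. In unstimulated cells it was 0.24 (edgeR adjusted p = 4.84e-04), with *Elk4* higher in HZ. The stimulated KO libraries still held 1867 and 1971 *Elk4* counts. The sources used here do not give the deleted part of the gene, so counts over the whole gene do not check the labels. The study also examined ELK4 protein in the 3 genotypes by western blotting, which is not analysed here, and HZ, WT and KO stand for libraries labelled so throughout. The relatives *Elk1* and *Elk3* had log2 differences of -0.15 ± 0.08 (edgeR adjusted p = 0.175) and -0.22 ± 0.08 (edgeR adjusted p = 0.0242).

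Counts totalled 32224089 to 35531667 in the 4 libraries, and for genes with a mean of at least 10 CPM in stimulated WT the SE of the log2 difference was 0.031 at its 5th and 0.13 at its 95th percentile. Replicates differed by more than counting noise, with a mean chi-square of 3.42 per gene between the WT and 3.80 between the HZ libraries, so neither pair was 1 library deposited again. All 12 mast cell markers were detected, and their summed level was 53365 and 53155 CPM in WT and 50764 and 51511 CPM in HZ. Of the 12 macrophage or monocyte markers, *C1qa* and *Mrc1* had 0 counts in all 4 libraries, *Csf1r* had 23 and 5 counts (WT) against 1 and 0 (HZ), *Lyz2* 131 and 143 against 235 and 209 and *Adgre1* 176 and 184 against 208 and 194. Of the 5 tested, 1 was called higher and 2 lower, and the list of 12 summed to 91.5 and 87.4 CPM in WT and 48.1 and 49.3 CPM in HZ, mostly from *Cx3cr1*. Neutrophil and B cell markers summed to at most 0.504 CPM in any of the 4. Dendritic cell markers, mostly *Itgax* and *Cd74*, summed to 5.42 and 5.98 CPM in WT and 2.35 and 2.16 CPM in HZ. Erythroid markers summed to at most 1.49 CPM. The sums were 1727 to 1800 CPM for basophil markers, mostly *Cd69* and *Cd200r3*, and 1511 to 1678 CPM for megakaryocyte markers, nearly all *Itga2b*. Of the 6 basophil markers tested, 1 was called higher, *Mcpt8*, and 0 lower by edgeR. *Mcpt8* had 171 and 151 counts (WT) against 362 and 317 (HZ). *Prss34* had 23 and 15 counts (WT) against 12 and 12 (HZ) and *Itga2* 8 and 5 against 1 and 0. Stromal or endothelial markers summed to 511 to 537 CPM, nearly all *Pecam1*. *Pf4*, *Gp9* and *Gp1bb* had at most 9 counts in any of the 4 libraries, and *Col1a1* and *Pdgfra* at most 5. Sums were 2.74 to 6.40 CPM for eosinophil and 0.236 to 1.14 CPM for T or NK cell markers. The part of other cells in the results below was not tested.

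Of 12208 genes tested, 435 were higher in stimulated HZ than in stimulated WT (3.56%) and 528 were lower (4.33%), where a call needed an edgeR p below 0.05 after Benjamini-Hochberg adjustment and an HZ level of at least 1.5 times, or no more than 0.66 times, the WT level. These calls had a median log2 difference of 1.08 among the higher and -1.19 among the lower genes, and 40 higher and 61 lower genes passed 8-fold. In 960 of the 963 called genes the HZ and WT libraries did not overlap, against 65% of all genes tested. Without the fold threshold, 2250 genes were higher (18.4%) and 2016 lower (16.5%). The median log2 difference over all genes was 0.02. In the plot of difference against level, called genes lie at low and at high levels, from *Capn11* to *Ccl3*, and the protease gene *Cpa3* lies near 0.

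**Figure D1:**
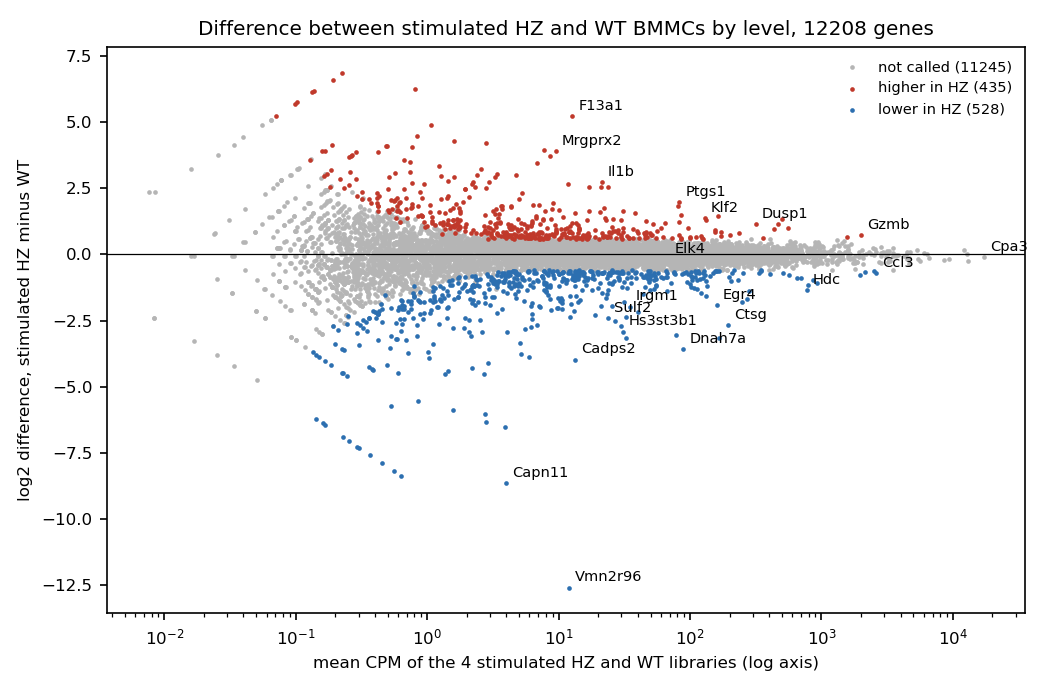
Log2 difference of stimulated HZ minus WT (y axis) against the mean CPM of the 4 libraries (x axis, log scale) for 12208 genes, with 435 higher genes in red, 528 lower genes in blue and the others in grey. Points on straight diagonals at the left are genes at or near 0 counts in all libraries of 1 group, whose fitted difference depends on the prior count.

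The same genotypes differed before antigen. In unstimulated cells 931 genes were higher in HZ (7.63%) and 1112 lower (9.11%), and without the fold threshold 3099 were higher (25.4%) and 3175 lower (26%). Of the 435 genes higher after antigen, 254 (58.4%) were also higher in unstimulated HZ, 20 were lower there and 161 were called in neither direction. The 254 genes were 27.3% of those higher in unstimulated HZ. Of the 528 lower genes, 285 (54%) were also lower in unstimulated HZ, 17 were higher there and 226 were not called. The 285 genes were 25.6% of those lower in unstimulated HZ. The change of the HZ-WT difference with antigen, tested as an interaction in edgeR, passed an adjusted p of 0.05 in 4705 genes, 2429 towards HZ (19.9%) and 2276 towards WT (18.6%). Among the higher genes the interaction passed towards HZ in 101 and towards WT in 69, and among the lower genes towards WT in 179 and towards HZ in 66. These counts go by the sign of the interaction, so a gene whose difference changed sign is counted by direction and not by size. The calls and the interaction use the same stimulated libraries, so choosing called genes favours larger differences after antigen. These splits are therefore not an independent result. The plot of both states shows the called genes on either side of the line of equal difference.

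**Figure D2:**
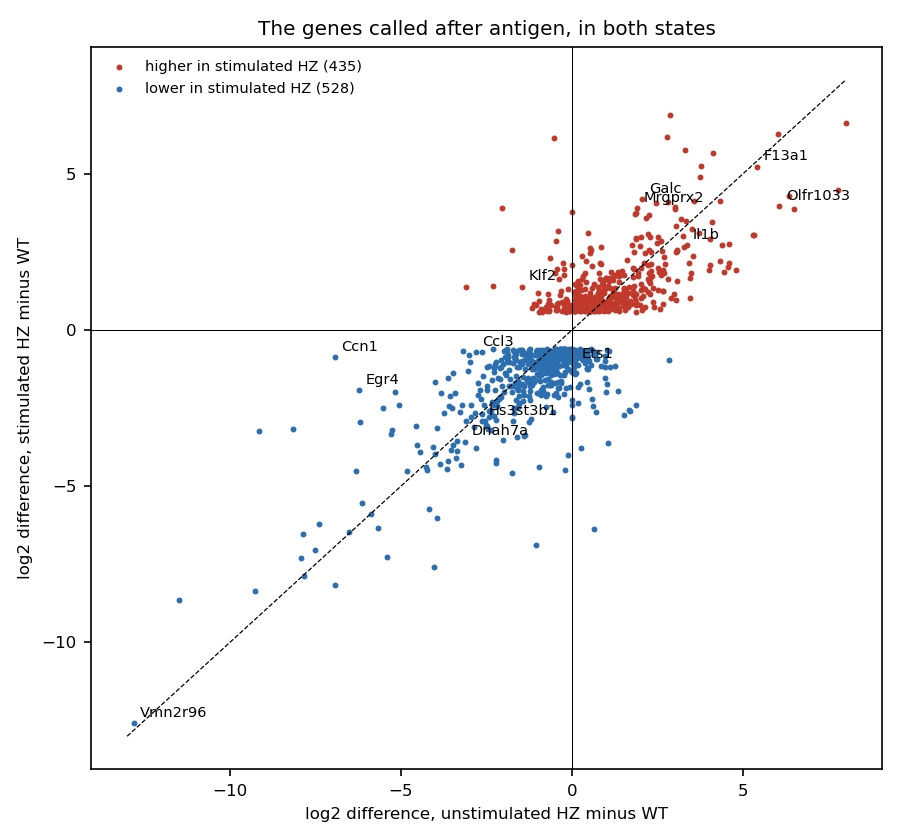
Log2 difference of HZ minus WT after antigen (y axis) against the same difference without antigen (x axis) for the 435 higher (red) and 528 lower (blue) genes, with a dashed line of equal differences. *F13a1*, *Dnah7a* and *Vmn2r96* lie near the line, *Egr4*, *Ccn1* and *Ccl3* lie to the left of it, with a larger drop before antigen, and *Klf2* is lower in HZ before antigen and higher after it.

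The 12 largest positive differences, taken from genes whose higher group averaged 100 counts or more and whose groups did not overlap, came from 3 to 39 counts per WT library. *F13a1*, the A chain of coagulation factor XIII, had 18 and 21 counts (WT) against 754 and 777 (HZ), a log2 difference of 5.22 ± 0.16 (edgeR adjusted p = 3.69e-30). It differed by 5.40 in unstimulated cells, and the interaction was -0.18 (edgeR adjusted p = 0.698). *Galc*, a lysosomal galactosylceramidase, had 7 and 10 counts (WT) against 179 and 152 (HZ). Of the Mas-related receptors, *Mrgprx2* had 32 and 39 counts (WT) against 576 and 535 (HZ) and *Mrgprb1* 37 and 36 counts (WT) against 552 and 451 (HZ). Both receptors had larger differences after antigen (3.90 and 3.71) than before it (1.90 and 1.83). *Mrgprb2*, the mast cell receptor for basic secretagogues, fell outside the 12 and had 17.7 and 16.8 CPM (WT) against 43.5 and 41.9 (HZ). In unstimulated cells *Mrgprb2* stood at 36.1 and 33.0 CPM (WT) against 31.7 and 31.6 (HZ), so the level after antigen was lower than before it in WT and higher in HZ, with an interaction of 1.43 (edgeR adjusted p = 5.00e-16).

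The olfactory receptor *Olfr1033* had 23 and 33 counts (WT) against 469 and 441 (HZ). Its difference was larger before antigen, 6.06 against 3.95, as was that of *Nrgn*, which encodes a calmodulin-binding protein, and the synaptic vesicle gene *Syn2*. *Nrgn* differed by 3.03 after and 5.31 before antigen. *Syn2* had 3 and 31 counts (WT) against 113 and 127 (HZ), and its log2 difference of 2.75 moved to 1.89 without WT replicate 1 and to 5.21 without WT replicate 2. The tetraspanins *Tspan8* and *Tspan32* differed by 3.46 and 3.00, the receptor kinase *Tie1* by 3.23, and *Tmem176b* and *Gcsam* by 2.99 and 2.91. In stimulated KO cells, compared with the same 2 WT libraries, these 12 genes differed by 3.22 (*Tmem176b*) to 6.46 (*F13a1*). The WT libraries enter both differences, so the KO values are not independent of the choice of these genes. The same holds wherever stimulated KO is set against these WT libraries below. Reads of olfactory and Mas-related receptors may be split between near-identical copies, so those values are uncertain.

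Among the lower genes, several were at or near 0 in HZ. *Vmn2r96*, a vomeronasal receptor gene, held 730 and 687 counts in the WT libraries, whereas both HZ libraries held 0, which makes it at least 248-fold lower against a floor of 3 counts per library. It also had 0 counts in both unstimulated HZ libraries. *Capn11*, a calpain protease gene, had 245 and 226 counts (WT) against 1 and 0 (HZ), a WT to HZ ratio of 494 (95% counting interval 88.2 to 19549). The microtubule-associated gene *Map9* had 460 counts in WT and 5 in HZ, a ratio of 96.5 (41.0 to 299). For the splicing factor *Rbfox1* the sums were 327 and 4 counts, a ratio of 85.7 (33.2 to 317), and for the flippase-type ATPase *Atp9a* 323 and 5 counts, a ratio of 67.7 (28.7 to 210). These exact binomial intervals cover counting error only. Without HZ replicate 1 the fitted log2 difference of *Capn11* was -11.00 and without HZ replicate 2 -7.85. That of *Map9* ranged from -7.68 to -5.94, that of *Rbfox1* from -7.32 to -5.70 and that of *Atp9a* from -7.31 to -5.28 when either HZ library was left out.

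*Dnah7a*, an axonemal dynein heavy chain, had the most counts of the 12, with 4951 and 4816 counts (WT) against 439 and 421 (HZ) and a log2 difference of -3.57 ± 0.07 (edgeR adjusted p = 1.91e-37). *Cadps2*, which primes dense-core vesicles for exocytosis, had 708 and 777 counts (WT) against 52 and 47 (HZ). *Sgce*, the imprinted epsilon-sarcoglycan gene, had 281 and 294 counts (WT) against 21 and 23 (HZ). The neuropeptide receptor component *Calcrl* had 154 and 93 counts (WT) against 8 and 5 (HZ). The lectin gene *Clec2i* had 158 and 168 counts (WT) against 18 and 2 (HZ), and its log2 difference of -4.09 was -6.26 without HZ replicate 1 and -3.31 without HZ replicate 2. The uncharacterised *LOC115490200* and *LOC118568653* differed by -4.51 and -3.86. All 12 genes were lower in unstimulated HZ too, with log2 differences of -2.82 (*Sgce*) to -12.80 (*Vmn2r96*) on the fitted scale, where values of genes at 0 depend on the prior count.

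In the gene groups below, brackets give the percentages of the group's tested genes called higher and lower, then the percentages higher and lower at the adjusted p alone. Over all genes these 4 percentages were 3.56% and 4.33%, then 18.4% and 16.5%. In a small group 1 gene moves its percentages by several points. At the adjusted p alone, genes with many counts pass with small differences, as *Egr1* does at 0.06. A larger share at the adjusted p alone may therefore reflect the level of a group's genes, which was not tested.

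Among stored mediators the histamine gene was lower in HZ. *Hdc*, which encodes histidine decarboxylase, the enzyme that makes histamine, had 33145 and 32947 counts (WT) against 14428 and 12765 (HZ), or 1116 and 1106 CPM (WT) against 439.6 and 432 (HZ). This was a log2 difference of -1.35 ± 0.04 (edgeR adjusted p = 8.67e-33), so HZ had 0.392 times the WT level. Before antigen the same libraries' counterparts stood at 131 and 122 CPM (WT) against 114 and 104 (HZ), a difference of -0.21, and the interaction was -1.14 (edgeR adjusted p = 7.40e-23). *Hdc* differed by -1.87 between stimulated KO and the same WT libraries. Of the 9 tested genes for histamine and serotonin handling (22.2% and 22.2%, then 33.3% and 33.3%), *Ddc*, the decarboxylase that makes serotonin, was also lower (-0.84 ± 0.05), while the breakdown enzyme *Maoa* (1.11 ± 0.22) and the serotonin transporter *Slc6a4* (1.16 ± 0.35) were higher. *Maoa* did not differ detectably before antigen (-0.34, edgeR adjusted p = 0.241). The call of *Slc6a4*, which had 34 and 19 counts (WT) against 56 and 68 (HZ), was lost without HZ replicate 2 (0.94) or without WT replicate 2 (0.80).

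Among 17 granule proteases, 3 were higher and 1 lower (17.6% and 5.88%, then 52.9% and 23.5%), with a list median of 0.17, and the share called higher was above that of all genes. *Ctsg*, cathepsin G, had 10044 and 9940 counts (WT) against 1717 and 1597 (HZ), a log2 difference of -2.66 ± 0.05 (edgeR adjusted p = 2.70e-39), close to the difference of -2.84 before antigen. *Gzmb*, granzyme B, had 44441 and 45079 counts (WT) against 80384 and 74767 (HZ) and was higher by 0.73 ± 0.02, again near the 0.80 before antigen. *Mcpt4*, a connective tissue mast cell chymase, was higher by 0.82 ± 0.08 after and 1.49 before antigen. *Mcpt8*, a basophil and mast cell protease gene, had 171 and 151 counts (WT) against 362 and 317 (HZ), and differed after antigen (1.01 ± 0.16) more than before (0.19; interaction edgeR adjusted p = 0.00307). Other mast cell protease genes had small differences. *Cpa3*, carboxypeptidase A3, had a log2 difference of -0.11, the tryptase *Tpsb2* -0.20 and the chymase *Cma1* 0.17, all with an adjusted p below 0.05 and none past the fold threshold.

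Heparin, which binds the proteases in the granule, is modified by sulfotransferases and sulfatases. Of 18 tested genes for serglycin and heparin synthesis, 3 were lower and 0 higher by edgeR (0% and 16.7%, then 5.56% and 44.4%), with a median of -0.03, while 1 higher and 8 lower genes passed the adjusted p alone. *Hs3st3b1*, a heparan sulfate sulfotransferase, had 1638 and 1593 counts (WT) against 213 and 236 (HZ), a log2 difference of -2.91 ± 0.13 (edgeR adjusted p = 1.31e-23). Its level was 3.35 and 3.09 CPM (WT) against 0.662 and 0.364 (HZ) without antigen and 55.1 and 53.5 CPM (WT) against 6.49 and 7.98 (HZ) with it, a rise in both genotypes. *Sulf2*, an extracellular sulfatase, differed by -2.40 ± 0.12. *Hs3st1* differed by -0.61 ± 0.04, and its call was lost without HZ replicate 1 (-0.57) or WT replicate 2 (-0.55).

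Of 47 genes of the degranulation and exocytosis machinery, 4 were higher and 4 lower (8.51% and 8.51%, then 19.1% and 34%), with a median of -0.06. *Syngr1*, a synaptic vesicle membrane protein, had 87 and 104 counts (WT) against 617 and 636 (HZ) and was higher by 2.65 ± 0.12 (edgeR adjusted p = 2.63e-23). The adhesion molecule *Cadm1* was higher by 0.99 ± 0.06, *Exoc3l*, a relative of the exocyst, by 0.77 ± 0.15 and *Syt11* of the synaptotagmins by 0.83 ± 0.16. *Sytl2*, a RAB27 effector at the granule, had 4539 and 4376 counts (WT) against 2696 and 2162 (HZ) and was lower, with a log2 difference of -0.95 ± 0.05. *Syt9* (-0.85 ± 0.13), *Scamp5* (-1.30 ± 0.34) and *Sytl1* (-0.68 ± 0.14) were lower too. *Sytl1* had been higher in unstimulated HZ (0.47), and the interaction was -1.15 (edgeR adjusted p = 1.64e-06).

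**Figure D3:**
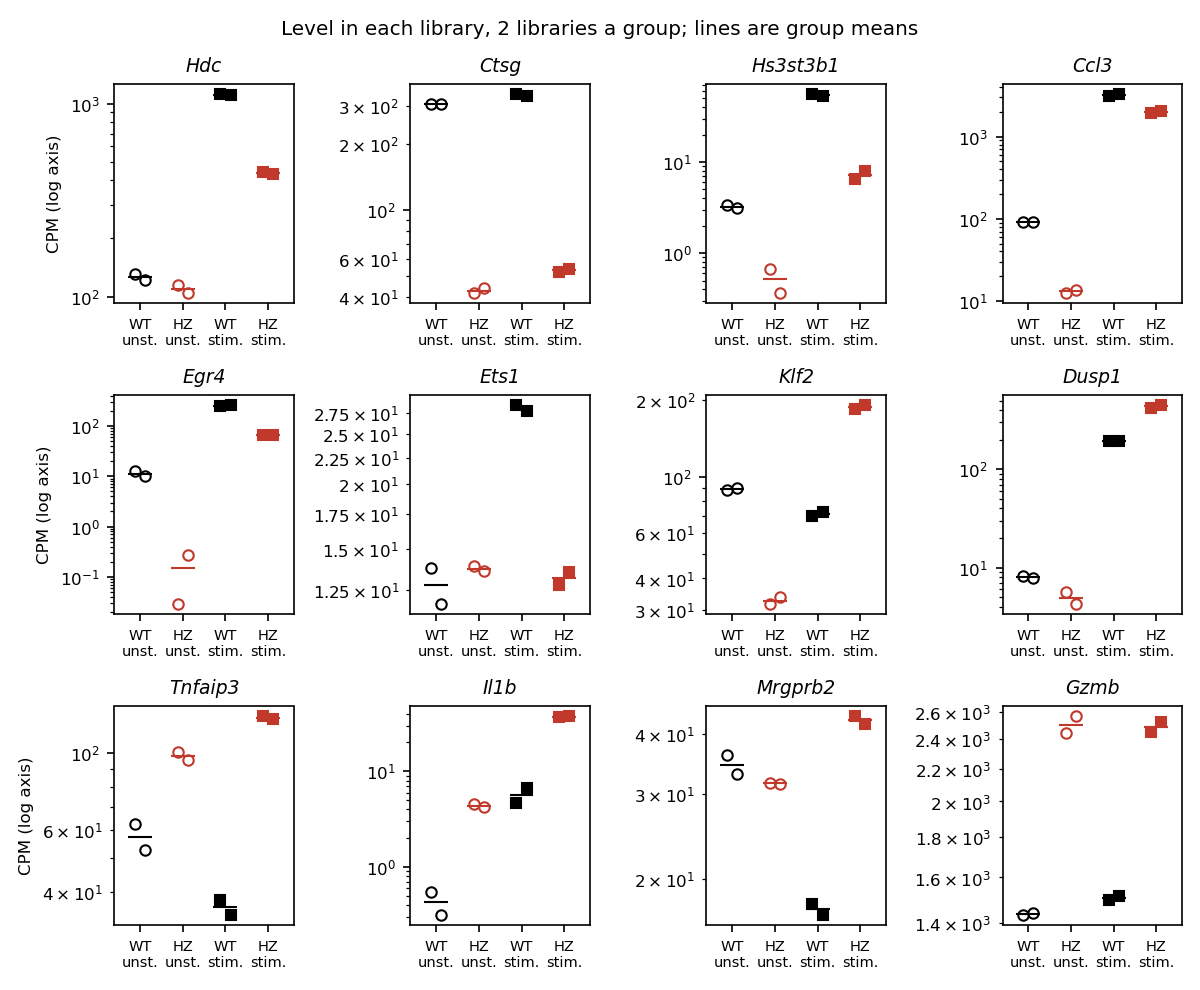
CPM (log y axis, a separate range per panel) of 12 genes in each of the unstimulated (open circles) and stimulated (filled squares) WT (black) and HZ (red) libraries, with group means as lines, 2 libraries a group. *Hdc* differs after antigen far more than before it, *Ctsg* and *Gzmb* differ alike in both states, and *Klf2*, *Tnfaip3* and *Mrgprb2* are lower after antigen than before it in WT and higher in HZ.

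Of 20 tested cytokine genes, 1 was higher and 3 lower (5% and 15%, then 10% and 40%), with a median of -0.04. At the adjusted p alone 2 were higher and 8 lower, a larger share of lower genes than the 16.5% of all genes. *Il1b*, which encodes the inflammatory cytokine IL-1β, had 137 and 197 counts (WT) against 1199 and 1107 (HZ), a log2 difference of 2.72 ± 0.13 (edgeR adjusted p = 5.31e-23). *Il1a*, its close relative, went the other way, with 211 and 217 counts (WT) against 80 and 63 (HZ) and a difference of -1.65 ± 0.31 (edgeR adjusted p = 3.06e-05). Both had a larger fitted difference before antigen, 3.35 and -3.99, at levels near or below 5 CPM. The IL-6 family member *Osm*, oncostatin M, had 77849 and 79230 counts (WT) against 54220 and 50494 (HZ) and was lower, with a log2 difference of -0.65 ± 0.03, and *Tnfsf8*, the CD30 ligand, was lower, with a log2 difference of -0.70 ± 0.03. *Il13*, a type 2 cytokine gene, had 36615 and 37665 counts (WT) against 30615 and 29579 (HZ), with no overlap and a difference of -0.37 ± 0.03 (edgeR adjusted p = 7.31e-13) that missed the fold threshold. *Il6* differed by 0.05 ± 0.03 (edgeR adjusted p = 0.169), *Tnf* by -0.01 ± 0.03 (edgeR adjusted p = 0.845) and *Il4* by 0.14 ± 0.10 (edgeR adjusted p = 0.326). *Csf2*, the gene of GM-CSF, was at 0 counts in all unstimulated WT and HZ libraries and had 694 and 778 counts (WT) against 1112 and 1062 (HZ) after antigen, a difference of 0.50 ± 0.11 (edgeR adjusted p = 2.10e-04) below the fold threshold. The sign of the *Tnf* difference changed between settings, from -0.04 without HZ replicate 2 to 0.03 without HZ replicate 1.

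The chemokine genes split by member. Of 13 tested, 4 were higher and 2 lower (30.8% and 15.4%, then 38.5% and 15.4%), with a median of 0.06. *Ccl3* and *Ccl4*, the neighbouring genes of the macrophage inflammatory proteins, had 93761 and 97183 counts (WT) against 63036 and 59795 (HZ) and 72421 and 74390 counts (WT) against 45595 and 43245 (HZ). Their log2 differences were -0.70 ± 0.03 (edgeR adjusted p = 3.87e-27) and -0.79 ± 0.03 (edgeR adjusted p = 2.10e-24). Both had been lower by far more before antigen, at -2.80 and -3.01, when *Ccl3* stood at 90.6 and 91.0 CPM (WT) against 12.5 and 13.6 (HZ). *Ccl1* had 758 and 904 counts (WT) against 1670 and 1550 (HZ) and was higher by 0.89 ± 0.09, with no detectable difference before antigen (-0.28, edgeR adjusted p = 0.365). The neutrophil attractant *Cxcl2* was higher by 1.39 ± 0.23 and *Ccl9* by 0.79 ± 0.13. *Ccl17* had only 1 and 5 counts (WT) against 40 and 37 (HZ), a ratio of 12.2 (95% counting interval 5.37 to 34.4), and its log2 difference of 3.56 was 2.85 without WT replicate 1 and 5.05 without WT replicate 2. *Ccl2*, at 3831 and 3926 CPM (WT) against 3712 and 3896 (HZ), differed by -0.03 ± 0.03 (edgeR adjusted p = 0.461) and by 0.01 without HZ replicate 1.

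Of 11 growth factor and peptide genes (27.3% and 9.09%, then 27.3% and 9.09%), *Vegfc* (388 and 360 WT counts, 1062 and 986 HZ counts), *Calca* (2780 and 2723 WT counts, 4921 and 4425 HZ counts) and *Adcyap1* were higher and *Spp1*, osteopontin, was lower. Their log2 differences were 1.39 ± 0.10, 0.70 ± 0.04, 1.90 ± 0.60 and -1.03 ± 0.24. *Adcyap1*, which encodes the neuropeptide PACAP, had 11 and 8 counts (WT) against 37 and 38 (HZ), and its call was lost without HZ replicate 2 (1.81) or WT replicate 2 (1.70).

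Many immediate-early genes are known targets of TCFs. Of 39 tested, 2 were higher and 2 lower after antigen (5.13% and 5.13%, then 41% and 33.3%), near the 3.56% and 4.33% of all genes, and the median log2 difference was 0.03. Without the fold threshold 16 were higher and 13 lower, larger shares than the 18.4% and 16.5% of all genes. In unstimulated cells 23 of the same genes were lower in HZ and 2 higher, with a median of -0.94, and the interaction passed towards HZ in 29 and towards WT in 5. *Egr1* had 174336 and 179259 counts (WT) against 201899 and 185173 (HZ) after antigen, a difference of 0.06 ± 0.02, against -1.95 before it. *Fos* differed by 0.27 ± 0.03 after and -2.54 before antigen, *Egr2* by -0.25 ± 0.03 and -3.56, *Nr4a1* by -0.12 ± 0.02 and -3.36, and *Junb* by -0.05 ± 0.03 and -0.79. In unstimulated cells *Fos* stood at 15.7 and 14.3 CPM (WT) against 2.42 and 2.73 (HZ) and *Nr4a1* at 325 and 324 CPM (WT) against 32.4 and 30.8 (HZ), so these genes had a higher level in WT than in HZ before antigen was given.

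The 4 called members were *Klf2*, *Rgs2*, *Egr4* and *Fosl1*. *Klf2*, a Krüppel-like factor, had 2090 and 2175 counts (WT) against 6061 and 5616 (HZ), a log2 difference of 1.39 ± 0.05 (edgeR adjusted p = 8.42e-29), after a difference of -1.45 before antigen. Its level was 88.8 and 90.6 CPM (WT) against 31.8 and 33.7 (HZ) without antigen and 70.4 and 73.0 CPM (WT) against 185 and 190.0 (HZ) with it, a fall in WT and a rise in HZ (both past an edgeR adjusted p of 0.05). *Rgs2*, a regulator of G protein signalling, had 11002 and 10944 counts (WT) against 24225 and 22040 (HZ) and was higher by 1.01 ± 0.03. *Egr4* had 7353 and 7632 counts (WT) against 2185 and 1977 (HZ), a difference of -1.92 ± 0.06 (edgeR adjusted p = 1.27e-28). Before antigen *Egr4* stood at 12.5 and 10.1 CPM (WT) against 0.0288 and 0.273 (HZ). *Fosl1*, the AP-1 member FRA-1, was lower, with a log2 difference of -0.69 ± 0.12 after and -3.19 before antigen.

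The TCF signature, 75 genes that the study took from published chromatin immunoprecipitation, held 1 higher gene, *Armc9* (0.72 ± 0.20, 0.52 without HZ replicate 2 and then not called), and 0 lower genes by edgeR (1.33% and 0%, then 24% and 24%). At the adjusted p alone 18 were higher and 18 lower, against 18.4% and 16.5% of all genes, and the median was -0.04. *Hes7*, at -1.22, was the member with the lowest value and did not pass. Among 17 TCF, SRF and ETS genes 2 were lower and 0 higher by edgeR (0% and 11.8%, then 5.88% and 64.7%). At the adjusted p alone 11 were lower and 1 higher, and the median was -0.17. *Ets1*, an ETS factor, had 843 and 825 counts (WT) against 420 and 400 (HZ), a log2 difference of -1.09 ± 0.11 (edgeR adjusted p = 6.38e-11). Before antigen *Ets1* stood at 13.8 and 11.7 CPM (WT) against 13.9 and 13.6 (HZ), without a detectable difference (0.11, edgeR adjusted p = 0.473). *Ets2* was lower, with a log2 difference of -0.84 ± 0.08 after and -0.85 before antigen. Of 19 SRF cytoskeletal targets (5.26% and 15.8%, then 26.3% and 52.6%), *Tpm3*, a tropomyosin, had 8216 and 8591 counts (WT) against 23719 and 21217 (HZ) and was higher by 1.35 ± 0.03. *Tpm4* (-2.66 ± 0.20), the LIM protein gene *Fhl2* (-1.50 ± 0.12) and the matricellular gene *Ccn1* (-0.86 ± 0.14) were lower. Reads of tropomyosin genes may be shared between paralogues.

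The promoters of called genes were searched for CCGGAA on both strands and for the CArG box in the 300 bases from 250 before to 50 after the RefSeq start (GRCm38.p6), for the 9821 tested genes with an entry. CCGGAA was in 66 of 341 higher genes (19.4%) and 64 of 417 lower genes (15.3%), against 31.9% of all genes with an entry. A CArG box was in 7 higher (2.05%) and 11 lower genes (2.64%), against 1.5% of all. A match is only a description of letters. The promoters of 4 named genes are shown in the direction of transcription with matches in capitals. *Egr2*, a gene with both motifs, was induced in both genotypes and was not called. *Fhl2*, lower in HZ, holds a CArG box, *Chaf1b*, higher in HZ, holds CCGGAA at 2 places, and *Hdc*, lower in HZ, holds neither.
Egr2 (RefSeq GRCm38.p6, chr10:67537316-67537615, plus strand): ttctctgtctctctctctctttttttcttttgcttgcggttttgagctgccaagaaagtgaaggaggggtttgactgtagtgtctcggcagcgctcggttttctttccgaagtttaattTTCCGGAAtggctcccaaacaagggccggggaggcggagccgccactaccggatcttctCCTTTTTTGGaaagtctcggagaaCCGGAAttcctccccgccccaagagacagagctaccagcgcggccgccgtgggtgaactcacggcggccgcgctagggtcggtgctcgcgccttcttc
Fhl2 (RefSeq GRCm38.p6, chr1:43163912-43164211, minus strand): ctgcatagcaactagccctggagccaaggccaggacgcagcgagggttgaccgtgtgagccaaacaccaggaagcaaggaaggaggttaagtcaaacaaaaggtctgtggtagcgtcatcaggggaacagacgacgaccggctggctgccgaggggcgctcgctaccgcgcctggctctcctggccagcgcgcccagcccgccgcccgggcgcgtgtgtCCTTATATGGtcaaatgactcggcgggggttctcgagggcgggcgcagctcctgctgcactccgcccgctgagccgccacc
Chaf1b (RefSeq GRCm38.p6, chr16:93883651-93883950, plus strand): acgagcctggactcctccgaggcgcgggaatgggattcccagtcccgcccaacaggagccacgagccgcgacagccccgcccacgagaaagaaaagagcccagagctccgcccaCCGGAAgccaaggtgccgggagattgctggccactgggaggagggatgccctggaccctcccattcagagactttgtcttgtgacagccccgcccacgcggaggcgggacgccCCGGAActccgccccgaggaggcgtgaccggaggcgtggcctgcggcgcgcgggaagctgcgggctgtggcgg
Hdc (RefSeq GRCm38.p6, chr2:126618629-126618928, minus strand): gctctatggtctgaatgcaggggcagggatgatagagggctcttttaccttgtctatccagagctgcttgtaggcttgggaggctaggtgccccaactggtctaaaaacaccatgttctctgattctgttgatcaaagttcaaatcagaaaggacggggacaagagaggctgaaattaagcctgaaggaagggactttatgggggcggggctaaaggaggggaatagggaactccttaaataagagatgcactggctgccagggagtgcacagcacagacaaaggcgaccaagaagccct
In *Egr2* the capitals mark TTCCGGAA, which reads as CCGGAA on both strands, then a CArG box, then another CCGGAA. For *Egr2* and *Fhl2*, which have several starts in the table, the start with the most matches is printed.

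Of 11 dual-specificity phosphatase genes, which switch off MAP kinases, 2 were higher (18.2% and 0%, then 18.2% and 45.5%), with a list median of -0.29. At the adjusted p alone 5 were lower. *Dusp1* had 5837 and 5853 counts (WT) against 13970 and 13229 (HZ), a log2 difference of 1.15 ± 0.04 (edgeR adjusted p = 1.27e-28), after -0.70 before antigen. *Dusp2* was higher by 0.72 ± 0.22 at 127 and 137 counts (WT) against 242 and 215 (HZ), a call lost without WT replicate 1 (0.67). Of 16 genes of NF-κB subunits and inhibitors (12.5% and 0%, then 18.8% and 25%), the 2 called were inhibitors and both were higher. *Tnfaip3*, the ubiquitin-editing inhibitor A20, had 1125 and 1020 counts (WT) against 4189 and 3719 (HZ), a log2 difference of 1.81 ± 0.06 (edgeR adjusted p = 1.48e-29). Its level was 62.7 and 52.6 CPM (WT) against 101 and 95.8 (HZ) without antigen and 37.9 and 34.2 CPM (WT) against 128 and 126 (HZ) with it. *Nfkbia*, which encodes IκBα, had 981 and 951 counts (WT) against 2348 and 2163 (HZ) and was higher by 1.16 ± 0.08, near the 1.25 before antigen. In stimulated KO cells, against the same WT libraries, *Dusp1* differed by 1.43, *Tnfaip3* by 2.79 and *Nfkbia* by 1.33.

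The chains of the IgE receptor had small differences, none past the fold threshold. *Fcer1a*, *Ms4a2* and *Fcer1g*, its α, β and γ chains, differed by 0.08 ± 0.02, -0.07 ± 0.02 and 0.09 ± 0.03. Of 39 genes of the receptor and its proximal signalling, 2 were higher and 3 lower (5.13% and 7.69%, then 28.2% and 41%), with a median of -0.04. *Card9*, an adaptor of the NF-κB pathway, had 1029 and 1011 counts (WT) against 435 and 408 (HZ), a log2 difference of -1.34 ± 0.09. *Malt1*, the paracaspase of the same pathway, had 15202 and 14853 counts (WT) against 9933 and 8990 (HZ), a difference of -0.74 ± 0.03. The Ras activator *Rasgrp1* had 714 and 782 counts (WT) against 480 and 453 (HZ), a difference of -0.75 ± 0.10. Of 20 genes of calcium entry, calcineurin and NFAT (0% and 5%, then 5% and 25%), *Nfatc1* alone was called, lower, with a log2 difference of -0.60 ± 0.04, and it missed the fold threshold without HZ replicate 2 (-0.59) or WT replicate 2 (-0.58).

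Receptors for complement and chemokines held 3 lower genes and 1 higher. The complement C5a receptors *C5ar1* (855 and 818 WT counts, 401 and 336 HZ counts) and *C5ar2* (2060 and 2145 WT counts, 954 and 787 HZ counts) differed by -1.25 ± 0.12 and -1.34 ± 0.07. *C5ar1* was lower in unstimulated HZ as well (-1.37), whereas *C5ar2* stood at 23.4 and 24.8 CPM (WT) against 25.0 and 23.3 (HZ), with a difference of 0.00. The fractalkine receptor *Cx3cr1* was lower, with a log2 difference of -1.16 ± 0.06, and the atypical receptor *Ccrl2* had 391 and 387 counts (WT) against 1104 and 936 (HZ) and was higher by 1.32 ± 0.10. Those were the 4 calls among 10 genes tested (10% and 30%, then 10% and 50%), with a median of -0.40. Of 21 genes for KIT and cytokine receptors 1 was higher and 4 lower (4.76% and 19%, then 9.52% and 42.9%), with a median of -0.13. *Il2ra*, the IL-2 receptor α chain, had 472 and 452 counts (WT) against 139 and 103 (HZ) and was lower, with a log2 difference of -2.00 ± 0.16. *Il9r* (-1.22 ± 0.08), *Epor* (-1.17 ± 0.28) and *Il10rb* (-0.61 ± 0.11) were lower too, although *Il10rb* missed the fold threshold without HZ replicate 2 (-0.60) or WT replicate 2 (-0.58). *Epor* had been higher in unstimulated HZ (0.84, edgeR adjusted p = 0.00291), whereas *Il9r* was lower there as well (-1.05). *Tnfrsf1b*, TNF receptor 2, had 248 and 238 counts (WT) against 814 and 790 (HZ) and was higher by 1.66 ± 0.11. *Kit*, the receptor of SCF, had 139567 and 139530 counts (WT) against 138800 and 122690 (HZ), a difference of -0.16 ± 0.02 (edgeR adjusted p = 7.27e-10) below the fold threshold.

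Among 23 inhibitory and accessory receptors, 3 were higher and 2 lower (13% and 8.7%, then 34.8% and 39.1%), with a median of -0.05. Beside *Mrgprb1* and *Mrgprb2*, *Cd300c2* was higher by 0.92 ± 0.10. The sialic acid receptor *Cd33* had 12465 and 12189 counts (WT) against 8969 and 8077 (HZ) and was lower, with a log2 difference of -0.60 ± 0.03, at the edge of the fold threshold, which it missed without HZ replicate 1 (-0.60), HZ replicate 2 (-0.60) or WT replicate 1 (-0.58). *Clec7a*, dectin-1, had 37 and 19 counts (WT) against 1 and 2 (HZ), a WT to HZ ratio of 19.6 (95% counting interval 6.36 to 97.8), and its fitted difference of -4.18 was -4.78 without HZ replicate 2. Of 20 integrins and adhesion molecules 4 were higher and 2 lower (20% and 10%, then 30% and 40%), with a median of -0.19. *Itgb3*, the integrin β3 subunit, had 206 and 208 counts (WT) against 1397 and 1140 (HZ) and was higher by 2.54 ± 0.09 (edgeR adjusted p = 7.41e-28). *Itga4* (1.15 ± 0.23) and *Itga6* (0.62 ± 0.09) were higher, and the call of *Itga6* was lost without WT replicate 2 (0.57). *Itgae* had 4 and 16 counts (WT) against 38 and 53 (HZ) and differed by 2.12, by 1.45 without WT replicate 1, where the call was lost, and by 3.41 without WT replicate 2. *Cd44*, the hyaluronan receptor, had 2828 and 2911 counts (WT) against 1421 and 1440 (HZ) and was lower, with a log2 difference of -1.07 ± 0.06, and *Itgax*, also a dendritic cell marker, was lower, with a log2 difference of -1.61 ± 0.28. The summed dendritic cell markers, 5.42 and 5.98 CPM (WT) against 2.35 and 2.16 (HZ), consisted mostly of *Itgax* itself. *Itgax* had 128 and 149 counts (WT) against 48 and 47 (HZ). *Cd74*, the next most abundant of these markers, had 30 and 25 counts (WT) against 29 and 15 (HZ). The part of dendritic cells in these results was not tested.

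Of 26 genes of eicosanoid synthesis and its receptors 1 was higher and 2 lower (3.85% and 7.69%, then 26.9% and 38.5%), with a median of -0.04. *Ptgs1*, cyclooxygenase-1, had 1043 and 965 counts (WT) against 4243 and 3991 (HZ), a log2 difference of 1.97 ± 0.05 (edgeR adjusted p = 1.41e-33), and differed by 2.01 before antigen. The prostacyclin receptor *Ptgir* had 309 and 274 counts (WT) against 103 and 71 (HZ) and was lower, with a log2 difference of -1.82 ± 0.19. *P2ry2*, a nucleotide receptor, was lower, with a log2 difference of -0.71 ± 0.23, a call lost without HZ replicate 1 (-0.52) or WT replicate 2 (-0.48). Of 27 lineage transcription factors (0% and 3.7%, then 18.5% and 33.3%), *Meis2* alone was called, with 579 and 651 counts (WT) against 329 and 315 (HZ), so that HZ had 0.500 times the WT level. *Mitf* differed by -0.07 ± 0.04 (edgeR adjusted p = 0.209) and *Gata2* by -0.18 ± 0.02 (edgeR adjusted p = 2.09e-08), and the list median was -0.01.

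The cell cycle genes differed by phase. Of 43 S-phase genes, 30 were higher and 1 lower at the adjusted p alone, against 18.4% and 16.5% of all genes, and 3 passed the fold threshold as higher (6.98% and 0%, then 69.8% and 2.33%). The median was 0.26. Of 54 G2/M genes, 1 was higher and 34 lower at the adjusted p alone, 11 passed the fold threshold as lower and 0 as higher by edgeR (0% and 20.4%, then 1.85% and 63%), a larger share of lower genes than the 4.33% of all genes, and the median was -0.29. *Chaf1b*, a chromatin assembly factor of DNA replication, had 1191 and 1130 counts (WT) against 2369 and 2143 (HZ) and was higher by 0.89 ± 0.06 (edgeR adjusted p = 1.80e-16). *Ung*, a DNA glycosylase (0.66 ± 0.14), and *Cdca7* (0.65 ± 0.10) were the others, and each fell below the threshold when a library was left out (*Ung* at 0.58 without HZ replicate 2 and 0.52 without WT replicate 1, *Cdca7* at 0.55 without WT replicate 2). *Psrc1*, a spindle protein gene, had 2174 and 2314 counts (WT) against 1015 and 911 (HZ) and was lower, with a log2 difference of -1.29 ± 0.07 (edgeR adjusted p = 1.48e-20). *Ccnb2*, cyclin B2, had 983 and 1056 counts (WT) against 555 and 470 (HZ), a difference of -1.06 ± 0.09. *Ube2c*, a ubiquitin carrier of mitotic exit, and the kinetochore gene *Cenpf* differed by -0.97 ± 0.10 and -0.91 ± 0.09.

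Both phases differed more before antigen, and there in the same direction. In unstimulated cells 37 of 43 S-phase and 54 of 54 G2/M genes were lower in HZ at the adjusted p alone, with medians of -0.91 and -1.46. The interaction passed towards HZ in 39 S-phase and 48 G2/M genes and towards WT in 0 S-phase (edgeR) and 1 G2/M genes. *Ccna2*, cyclin A2, differed by -0.28 ± 0.06 after and -1.68 before antigen, and *E2f2*, an E2F activator, by 0.16 ± 0.13 (edgeR adjusted p = 0.348) and -1.48. In stimulated KO cells against the same WT libraries, the medians were -0.32 for S-phase and -1.25 for G2/M genes. Of 30 genes listed as G1 cyclins, kinases and inhibitors 1 was higher and 2 lower (3.33% and 6.67%, then 26.7% and 40%). This list also holds *Ccna2*, *Ccnb1*, *Ccnb2* and *Cdk1*, which act after G1, so its shares are not of G1 genes alone. *Ccnb2* was 1 of the 2 lower genes. *Ccnb2* and *Cdk1* are in the G2/M list as well, and *Ccne2* and *E2f8* in the S-phase list. The inhibitor gene *Cdkn2a* had 1061 and 1215 counts (WT) against 743 and 712 (HZ) and was lower, with a log2 difference of -0.71 ± 0.08, with no detectable difference before antigen (0.05, edgeR adjusted p = 0.635). *Skp2* was higher by 0.64 ± 0.19, a call lost without HZ replicate 1 (0.40) or WT replicate 1 (0.45). *Cdk6* and *Cdk2* differed by -0.25 ± 0.03 and 0.23 ± 0.06, below the fold threshold. In bulk RNA, fewer cells in a phase and less RNA per cell cannot be told apart.

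**Figure D4:**
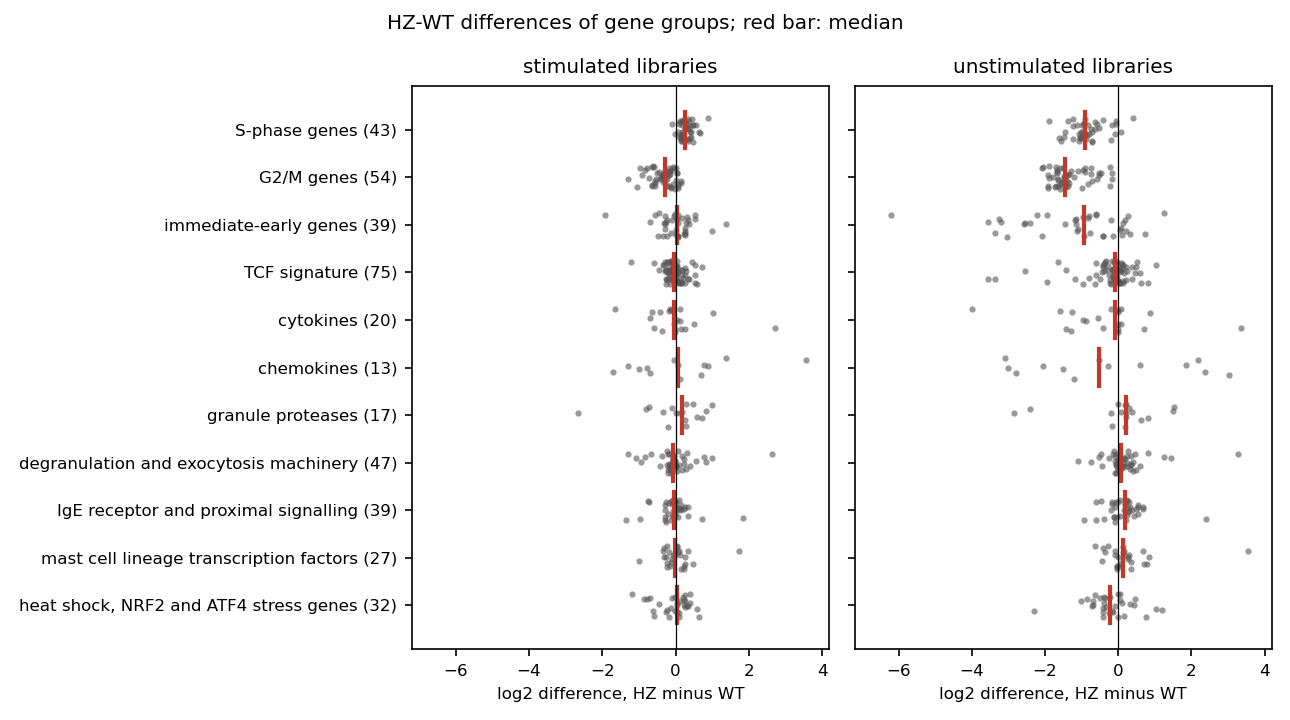
Log2 differences of HZ minus WT (x axis) for the genes of 11 groups, 1 point a gene, in stimulated (left) and unstimulated (right) libraries, with the group median as a red bar and the number of genes tested in brackets. The medians of S-phase, G2/M and immediate-early genes are -0.91, -1.46 and -0.94 without antigen and 0.26, -0.29 and 0.03 with it, while single genes of the S-phase and immediate-early groups lie above 0 without antigen.

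Of 32 stress genes 1 was higher and 5 lower (3.12% and 15.6%, then 46.9% and 34.4%), with a median of 0.03. *Chac1*, an ATF4 target that degrades glutathione, had 5364 and 5829 counts (WT) against 2825 and 2314 (HZ), a log2 difference of -1.19 ± 0.07 (edgeR adjusted p = 3.70e-19), and stood at 8.66 and 9.95 CPM (WT) against 8.75 and 10.6 (HZ) before antigen. *Ddit3*, the stress factor CHOP, was lower, with a log2 difference of -0.85 ± 0.06 after antigen and higher by 0.45 before it. *Hmox1*, heme oxygenase 1, had 21308 and 21533 counts (WT) against 13569 and 12440 (HZ) and was lower, with a log2 difference of -0.79 ± 0.03, and *Sesn2* was lower, with a log2 difference of -0.70 ± 0.05. The heat shock gene *Hspa1a* was higher by 0.64 ± 0.09, 0.55 and not called without WT replicate 2, and shares much of its sequence with a neighbouring copy. Of 14 genes of the BCL2 family 2 were higher and 3 lower (14.3% and 21.4%, then 28.6% and 28.6%). *Bbc3*, the death activator PUMA, had 1212 and 1327 counts (WT) against 699 and 592 (HZ) and was lower, with a log2 difference of -1.04 ± 0.07 after a difference of 0.39 before antigen. *Bad* was higher by 0.65 ± 0.09. The other 3 calls, *Bmf*, *Bcl2a1b* and *Bcl2a1d*, did not hold without single libraries. *Bmf* was at 0.50 without HZ replicate 2 and 0.38 without WT replicate 1. *Bcl2a1b* (18 and 23 WT counts, 5 and 4 HZ counts) lost its call without any of the 4 libraries (-2.39 to -2.04). *Bcl2a1d* lost it without HZ replicate 1 (-2.02), HZ replicate 2 (-1.17) or WT replicate 1 (-0.89), and the last pair are near-identical copies.

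Of 33 interferon-stimulated genes 2 were higher and 5 lower (6.06% and 15.2%, then 15.2% and 27.3%), with a median of -0.14. *Irgm1*, an immunity-related GTPase, had 1724 and 1576 counts (WT) against 479 and 406 (HZ), a log2 difference of -1.97 ± 0.10 (edgeR adjusted p = 2.82e-22), against -0.85 before antigen. The RNA sensor *Ifih1* (341 and 345 WT counts, 160 and 143 HZ counts) was lower, with a log2 difference of -1.25 ± 0.18. *Isg15* (-1.29 ± 0.35) and *Ifi27l2a* (-0.94 ± 0.22) were lower, and both calls were lost without WT replicate 2 (-1.13 and -0.68). *Ifi27l2a* had been higher in unstimulated HZ (0.71). *Ly6e* had 8636 and 8825 counts (WT) against 18614 and 17183 (HZ) and was higher by 0.97 ± 0.03. *Ifit2* was higher by 0.94 ± 0.28, a call lost without HZ replicate 2 (0.61) or WT replicate 1 (0.87). Of 23 genes of antigen presentation (0% and 4.35%, then 0% and 30.4%), *Cd86*, a costimulatory molecule, alone was called, with 28 and 15 counts (WT) against 1 and 1 (HZ), a WT to HZ ratio of 22.5 (95% counting interval 5.87 to 192). Of 28 cholesterol genes 2 were higher and 0 lower by edgeR (7.14% and 0%, then 39.3% and 17.9%), against 11 higher and 5 lower at the adjusted p alone. *Scd1*, a fatty acid desaturase, had 547 and 529 counts (WT) against 1099 and 982 (HZ) and differed by 0.88 ± 0.08 after and 2.37 before antigen.

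Genes that antigen induced were also listed from the KO libraries, which share none of the 4 libraries compared here. With 2-fold as the minimum and the same adjusted p, 455 genes were higher in stimulated than in unstimulated KO cells (3.73%). Of these, 41 (9.01%) were higher and 61 (13.4%) lower in stimulated HZ than in WT, against 3.56% and 4.33% of all genes, and 353 were called in neither direction. Their median log2 difference was -0.11, against 0.02 for all genes. Of the 61 lower genes 38 were lower in unstimulated HZ as well, and of the 41 higher genes 22 were higher there.

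The tests came from edgeR's quasi-likelihood model over all 12 libraries. With 2 libraries a group, an exact permutation test of a single gene cannot go below p = 0.333 (two-sided), so each adjusted p rests on the spread shared across genes.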

How the data were processed

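RNA-seq of 12 BMMC libraries, 6 groups of 2, was used. The submitters' processing notes name fastp, HISAT2, HTSeq and the build GRCm39. Versions, settings, annotation and strand of counting are not given in the sources used here, so reads of overlapping or antisense genes and of near-identical copies cannot be told apart. The authors deposited raw counts per gene, used for the main tests, and FPKM (fragments per kilobase, scaled for depth), used for an alternative. The table held 16234 genes, of which 172 had no count, and 12208 passed filterByExpr. Library totals were 29697958 to 35531667.

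Counts were tested in edgeR 4.0.16 (R 4.3.3) by the quasi-likelihood test with TMM scaling (factors 0.903 to 0.924 in the 4 libraries), a mean per group and a prior count of 0.125, with Benjamini-Hochberg adjustment over all genes. The biological coefficient of variation was 4.01%. Calls needed an adjusted p below 0.05 together with a fold of 1.5 or more, or of 0.66 or less. On simulated data for stimulated HZ against WT (11969 genes), 95% of 100 genes changed by a log2 of 0.877 and 99% of 100 changed by 2 were recovered, and 7 unchanged genes were called. The simulated counts were drawn with the spread that edgeR fitted to these libraries, and only those genes were changed, in stimulated HZ alone. These figures therefore check the model on its own assumptions and do not give the error rate in the real data. Alternatives were DESeq2 1.42.0, its size factors, library totals, other filters and thresholds, the 4 libraries alone, a replicate block, each library left out, and limma 3.58.1 on log2(FPKM + 1) or log2(FPKM + 0.1) with low genes (mean FPKM under 0.5) removed or kept.

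Named genes were the genes the study measured by RT-qPCR, the 12 largest calls per direction with at least 100 counts in the higher group and no overlap, up to 4 calls per direction from each of the gene lists with at least 20 counts, and 20 genes named whatever their test. Members and lists were chosen with earlier results of these data known. Sex-linked genes were not analysed here, so the sex of the animals behind each library was not checked. Results of some named genes are not reported here. Of the 19 genes measured by RT-qPCR, 3 were higher and 4 lower. Promoter sequences are from RefSeq (GRCm38.p6), and 2387 tested genes had no entry.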

Additional observations from a re-analysis of the deposited data

Results flagged for a closer look

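The difference between HZ and WT itself differed between stimulated and unstimulated cells in 98 of the 155 reported genes named by the rule, by the interaction test in edgeR at an adjusted p below 0.05. In 48 of them the 2 differences were at least 2-fold apart, with adjusted p from 6.51e-49 to 0.0498, and in 50 they were closer. Each value below is the log2 difference of HZ minus WT after antigen less the same difference without it, from 2 libraries a group. A positive value means that HZ stood higher against WT after antigen than before it. No explanation for the changes was tested.

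In 31 genes the value was positive. Among immediate-early genes and other rapidly induced genes it was 6.07 for *Ccn1*, 4.30 for *Egr4*, 3.31 for *Egr2*, 3.24 for *Nr4a1*, 2.84 for *Klf2*, 2.81 for *Fos*, 2.51 for *Fosl1*, 2.01 for *Egr1*, 1.85 for *Dusp1*. Among cytokines, chemokines and other secreted products it was 2.34 for *Il1a*, 2.22 for *Ccl4*, 2.10 for *Ccl3*, 1.96 for *Spp1*, 1.41 for *Tnf*, 1.17 for *Ccl1*, 1.01 for *Il6*. Among cell cycle genes it was 1.64 for *E2f2*, 1.57 for *Ung*, 1.40 for *Ccna2*, 1.38 for *Cdca7*, 1.30 for *Skp2*, 1.12 for *Ube2c*, 1.01 for *Cenpf*. Among Mas-related receptors it was 2.00 for *Mrgprx2*, 1.87 for *Mrgprb1*, 1.43 for *Mrgprb2*. The other positive values were 2.14 for *Galc*, 1.91 for *Ifit2*, 1.45 for *Maoa*, 1.06 for *Hspa1a*, 1.04 for *Tnfaip3*. *Klf2*, *Dusp1*, *Skp2*, *Ung*, *Cdca7* and *Ifit2* were called lower in HZ without antigen and higher with it. The calls of *Skp2*, *Ung*, *Cdca7* and *Ifit2* after antigen did not hold without single libraries. *Fos* and *Egr1* were lower in HZ without antigen and, at the adjusted p alone, higher with it. The largest values, those of *Ccn1* and *Egr4*, followed fitted differences of -6.93 and -6.22 without antigen. *Egr4* had few counts in unstimulated HZ, so the size of its value is uncertain.

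In 17 genes the value was negative. For genes that were lower in HZ after antigen, with a smaller or undetected difference before it, it was -1.14 for *Hdc*, -1.20 for *Ets1*, -1.34 for *C5ar2*, -1.12 for *Irgm1*. For stress and death genes it was -1.25 for *Chac1*, -1.30 for *Ddit3*, -1.43 for *Bbc3*. For *Atp9a*, lower in both states, it was -2.06. The remaining values were -2.29 for *Nrgn*, -2.11 for *Olfr1033*, -2.01 for *Epor*, -1.83 for *Syn2*, -1.80 for *Slc6a4*, -1.64 for *Ifi27l2a*, -1.48 for *Scd1*, -1.15 for *Sytl1*, -1.07 for *Ccl9*. *Epor* and *Ifi27l2a* were called higher in HZ without antigen and lower with it. *Sytl1*, *Ddit3* and *Bbc3* were called lower with antigen and, at the adjusted p alone, were higher without it.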

How the results depend on the processing

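Without the fold threshold 2250 genes were higher and 2016 lower, 993 and 991 of them also in unstimulated cells, 88 and 169 of the genes induced in KO cells were called, and *Elk4* (-0.17) passed. At a 2-fold threshold the counts were 239 and 311, 152 and 171, and 26 and 32. limma on log2(FPKM + 1) gave 190 and 215, 105 and 124, and 20 and 29, and without the filter on low FPKM 187 and 227, 103 and 133, and 20 and 29. With a pseudocount of 0.1 it gave 327 lower genes, 37 of them induced in KO cells. A larger pseudocount shrinks differences of low genes, so fewer pass the fold threshold. *Tnf*, never called, changed sign to 0.0182 with library totals and 0.0181 in all 3 limma settings, and ranged from -0.0411 to 0.0275 over leaving out each of the 4 libraries. *Ccl2*, never called, ranged from -0.0612 to 0.00845 over the same.

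Leaving out each of the 4 libraries gave 390 to 422 higher and 452 to 479 lower genes, and *Elk4* at -0.28 to -0.05. A lone library was then assumed to vary like the other groups. With the replicate block (replicate number as a term) 427 were higher and 528 lower, 250 and 286 were shared with unstimulated cells and 4769 differed between states. The numbers share only a label, with a correlation of deviations over 8383 genes of 0.05 between stimulated HZ and WT, 0.106 between stimulated and unstimulated HZ and -0.0245 between stimulated and unstimulated WT, and there are only 2 such pairs. Over 17 settings, 2436 of 2632 values of named genes kept their direction and side of the threshold, 168 lost the call, 21 gained it and 7 (2 genes) changed sign. Of the 129 called named genes, 23 lost the call when at least 1 of the 4 libraries was left out, as given beside those the report names. Some of these, such as *Cd33*, only just missed the fold threshold.

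Genes with few counts are limited by depth, and their fitted differences depend on the prior count.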

Other observations

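The genes in this section were chosen after their values were seen. *Gpx3*, an extracellular glutathione peroxidase, had 306 and 271 counts (WT) against 45 and 41 (HZ) after antigen, a log2 difference of -2.81 ± 0.20 (edgeR adjusted p = 6.71e-16). Before antigen its difference was 0.00, and the interaction was -2.81 (edgeR adjusted p = 1.68e-12). *Rhbdf2*, the iRhom2 gene needed for the release of TNF from the cell surface, had 4826 and 4816 counts (WT) against 2120 and 1926 (HZ) after antigen, with a difference of -1.32 ± 0.05 and 0.02 before it. The glutamate receptor gene *Gria3* had 351 and 307 counts (WT) against 150 and 121 (HZ), with differences of -1.35 and 0.01. *Nrp1*, a semaphorin and VEGF co-receptor, went the other way, with 230 and 171 counts (WT) against 662 and 570 (HZ), 1.55 ± 0.13 after and 0.17 before antigen.

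Other abundant genes differed in both states. *Olr1*, an oxidised LDL receptor, had 8921 and 8783 counts (WT) against 1144 and 937 (HZ), a difference of -3.16 after and -8.16 before antigen. *Ptpn13*, a tyrosine phosphatase, had 4134 and 4124 counts (WT) against 552 and 502 (HZ) (-3.04 and -2.52), and the sorting receptor *Sorl1* 1563 and 1496 counts (WT) against 280 and 212 (HZ) (-2.71 and -2.33). Higher in both states were the mucin gene *Muc13*, with 175 and 194 counts (WT) against 1154 and 1090 (HZ) (2.54 and 3.07), and the focal adhesion gene *Tns1*, with 164 and 129 counts (WT) against 970 and 841 (HZ) (2.56 and 2.25).

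Of the 30 tested genes nearest to *Elk4* on its chromosome, 15 on each side in the RefSeq order of GRCm38.p6, 3 were higher (*Dyrk3*, *Ctse* and *Nuak2*) and 2 lower (*Slc41a1* and *Mdm4*), or 16.7%, against 7.89% of all genes tested. *Dyrk3* differed by 1.41 and *Mdm4* by -0.62.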
